A study of Mus musculus with 95 samples.

Results

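Imprinted genes are expressed mainly or wholly from the copy inherited from 1 parent. The 47 genes described here were chosen by name from 10 imprinted clusters, from single imprinted loci and from genes known for imprinting in extraembryonic tissue, a rule that uses no measured value. The list was nevertheless drawn up with earlier results of these data known. Of these, 46 had a row among the 23377 genes of the count table, the exception being Nespas. The filter on low counts left 43 of them among 15464 tested genes, and Kcnq1, Slc22a2 and Snrpn did not pass it. Positions on the mouse build NCBIM37 were found for 45 of the 46, all but Kcnq1ot1.

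All cells were E14 mouse embryonic stem cells or clones derived from them, cultured on gelatin with serum, LIF and inhibitors of the kinases GSK3β and MEK. The 14 RNA libraries formed 7 groups of 2: wild-type, Pcgf1-/-, Pcgf2/4-/-, Pcgf3/5-/-, Pcgf6-/-, Pcgf1/2/4-/- and Pcgf3/5/6-/-. PCGF4 is the product of Bmi1. Each knockout line was a clone edited with Cas9, and double and triple knockouts came from a new round of editing in such clones, so that clone and genotype cannot be told apart. ChIP-seq gave 1 sample per antibody and line, except a second RING1B and H2AK119ub1 sample of Pcgf1/2/4-/-. The label H3K27m3 was read as H3K27me3, H3K4m3 as H3K4me3 and H3K36m3 as H3K36me3. The alleles of the 2 parents were not distinguished, so every value is the sum over both.

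As background, an imprint is set by DNA methylation of a control region in the germ line and is then protected through early development by factors such as ZFP57 and TRIM28. Many imprinted clusters hold a long noncoding RNA whose expression goes with silencing of neighbouring genes on the same chromosome copy, and some of that silencing involves Polycomb complexes. Polycomb repressive complex 1 contains RING1B, which ubiquitinates H2A at K119, and 1 of several PCGF subunits, while complex 2 contains SUZ12 and methylates H3 at K27. In stem cells both complexes occupy CpG islands of genes with little expression, and PCGF6 belongs to a variant complex 1 that contains the DNA-binding proteins MGA and E2F6.

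The sequences at the summits of wild-type peaks are shown for 5 of the genes, all on the plus strand of NCBIM37. Igf2, Cdkn1c and Sfmbt2 are shown for RING1B, because their RNA rose by over 1.5 on the log2 scale in a triple knockout although a RING1B peak was still listed at their starts. Capitals mark CG dinucleotides. The Cdkn1c window chr7:150645843-150646043 lies in coding sequence and holds 19. The Igf2 stretch chr7:149846697-149846836 lies where Igf2 and Igf2as overlap and holds 14 in 140 bases. It is part of a summit window of 201 bases that holds 21. The Sfmbt2 window chr2:10296768-10296968 lies in an intron and holds 16. The 5454 wild-type RING1B summits had a median of 15 CG dinucleotides in 201 bases, with a range of 0 to 36.
Cdkn1c: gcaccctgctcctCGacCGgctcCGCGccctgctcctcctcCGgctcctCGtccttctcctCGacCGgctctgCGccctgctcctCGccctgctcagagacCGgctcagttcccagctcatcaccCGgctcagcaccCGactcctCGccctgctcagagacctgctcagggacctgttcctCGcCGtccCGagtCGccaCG
Igf2: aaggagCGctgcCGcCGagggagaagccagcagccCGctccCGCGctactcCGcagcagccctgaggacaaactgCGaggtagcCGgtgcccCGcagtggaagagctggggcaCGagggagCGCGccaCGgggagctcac
Sfmbt2: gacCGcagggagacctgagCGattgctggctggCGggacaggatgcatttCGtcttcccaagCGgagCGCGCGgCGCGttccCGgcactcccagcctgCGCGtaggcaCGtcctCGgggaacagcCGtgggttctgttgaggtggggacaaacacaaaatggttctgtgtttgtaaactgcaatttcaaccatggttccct
Ascl2 and Igf2r are shown for PCGF6, which had wild-type peaks at 4 of the imprinted genes. The Ascl2 window chr7:150154029-150154229 lies in coding sequence, and the Igf2r window chr17:12962662-12962862 lies upstream of that gene, inside Airn. Capitals mark CACGTG, the E-box, which was searched on both strands together with GCGGGAA, an E2F-type motif. The Ascl2 window held 1 CACGTG, and the Igf2r window held neither. The summit windows at Gnas and Ndn, which are not shown, also held neither.
Ascl2: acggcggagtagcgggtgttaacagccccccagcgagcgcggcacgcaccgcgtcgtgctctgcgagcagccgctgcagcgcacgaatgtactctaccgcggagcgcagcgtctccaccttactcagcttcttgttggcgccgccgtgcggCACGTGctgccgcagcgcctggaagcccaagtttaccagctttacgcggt
Igf2r: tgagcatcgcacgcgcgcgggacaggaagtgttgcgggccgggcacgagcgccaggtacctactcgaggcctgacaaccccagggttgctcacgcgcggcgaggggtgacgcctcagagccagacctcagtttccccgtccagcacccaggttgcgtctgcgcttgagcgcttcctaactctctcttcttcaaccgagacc
Of the 1868 wild-type PCGF6 summits, 20.9% held CACGTG and 7.49% held GCGGGAA within 201 bases. Among 32851 RefSeq promoters of 300 bases (GRCm38.p6) the shares were 7.15% and 4.6%. RefSeq promoters were matched for 38 of the imprinted genes. The 15 with a wild-type RING1B peak had a median of 12 CG dinucleotides (range 2 to 45) and the 22 without one had 13 (range 0 to 29), while all promoters had a median of 7. Relative to base composition the order was the other way round, with a median observed-over-expected CG ratio of 0.685 with a peak and 0.545 without one (0.384 over all promoters).

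Libraries held 2147968 to 7848161 counts, with the lowest totals in the 2 triple knockouts and 1 Pcgf2/4-/- library. The highest count of any gene in a library was 3012 to 6322, so high counts look capped and differences of abundant genes may be understated. The 2 wild-type libraries differed by no more than sampling noise over all genes (chi-square per degree of freedom 0.943) and slightly over 2630 sparse genes (1.05, p = 0.0414), against 1.19 to 22.8 over all genes in the other groups. They were kept as 2 libraries. Nothing says that replicates were separate cultures, so p-values measure only the spread between these libraries. Pcgf6 RNA was at 0 in Pcgf6-/-, but the Pcgf3/5/6-/- libraries had it at the wild-type level (log2 0.17, adjusted p = 0.338), and Pcgf2, Bmi1 and Pcgf3 RNA was not lowered in any line labelled as lacking them, nor Pcgf5 RNA in Pcgf3/5/6-/- (log2 0.33, adjusted p = 0.206). Counts outside a deleted part check nothing about a label, so Pcgf3/5/6-/- stands below for the libraries so labelled. Where a direction is drawn from them, the absence of PCGF6 rests on the label and not on the RNA. In bulk RNA, fewer cells of a type and less RNA per cell cannot be told apart.

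Of the 43 tested imprinted genes, 15 to 31 passed in each knockout, the most in Pcgf3/5/6-/-. In that line 31 passed an adjusted p of 0.05 (19 raised, 12 lowered), where 53.3% of all tested genes passed. Their median absolute log2 fold change was 1.06, and that of all genes was 0.614. In Pcgf6-/- 23 passed (13 raised, 10 lowered) beside 46.5% of all genes. In Pcgf1-/- 17 passed (8 raised, 9 lowered) beside 32.3%, and in Pcgf1/2/4-/- 18 passed (7 raised, 11 lowered) beside 37.0%. In Pcgf2/4-/- 19 passed (6 raised, 13 lowered) beside 21.6%, and in Pcgf3/5-/- 15 passed (12 raised, 3 lowered) beside 21.6%. As percentages of the 43 these counts were 72.1%, 53.5%, 39.5%, 41.9%, 44.2% and 34.9% in the order given, so the shares in Pcgf1/2/4-/-, Pcgf1-/- and Pcgf6-/- lay near the background. Over all genes 28.0% were raised and 25.3% lowered in Pcgf3/5/6-/-, 27.8% and 18.6% in Pcgf6-/-, 13.9% and 18.4% in Pcgf1-/-, 14.4% and 22.6% in Pcgf1/2/4-/-, 8.10% and 13.5% in Pcgf2/4-/-, and 11.1% and 10.4% in Pcgf3/5-/-. Over all genes the median fold change (log2) was -0.11 in Pcgf1/2/4-/- and between -0.050 and 0.048 in the other lines. Wild-type libraries bear on all of these counts: without either of them the count fell in every knockout, most in Pcgf1-/- and Pcgf2/4-/-. These fits tested 44 imprinted genes, and in Pcgf1-/-, Pcgf2/4-/- and Pcgf1/2/4-/- the share of all genes that passed fell too. Without Pcgf6-/- replicate 2 the count in Pcgf6-/- was 14 of 43 (32.6%), below the 36.1% of all genes.

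**Figure D1:**
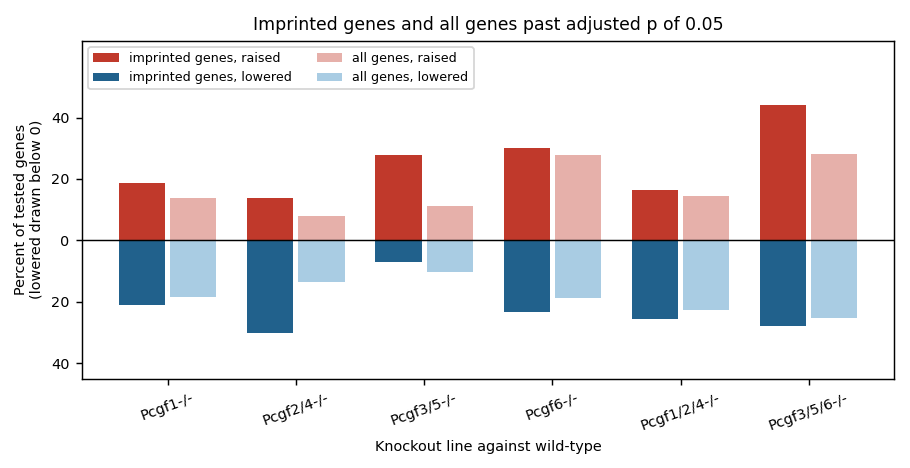
Percent of tested genes raised or lowered at an adjusted p below 0.05 in each knockout against wild-type, for the 43 imprinted genes and for all 15464 genes. In Pcgf3/5/6-/- 72.1% of the imprinted genes passed, beside 53.3% of all genes.

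Of the 43 tested genes, 40 passed in at least 1 knockout, and 3 (Tssc4, Commd1 and Mcts2) in none. Direction depended on the line: 16 genes were raised in 1 knockout and lowered in another, 12 were raised only and 12 lowered only. Ascl2, Ndn and Sfmbt2 passed in all 6 knockouts, and of these Sfmbt2 alone was raised in all 6. H19, Peg10 and Plagl1 passed in 5. Per kilobase of exon, Phlda2, Impact, Mcts2 and Slc38a4 had the highest wild-type levels, from 77.3 to 120.7 CPM per kb, while Snrpn, Slc22a2, Slc22a3, Magel2 and Kcnq1 had no count in wild-type. Values per library are given below for 22 genes in CPM, counts scaled to a fixed library total, replicate 1 first. These 22 passed in 77 combinations of gene and knockout, of which 55 stayed past the threshold in every fit that left out 1 library.

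**Figure D2:**
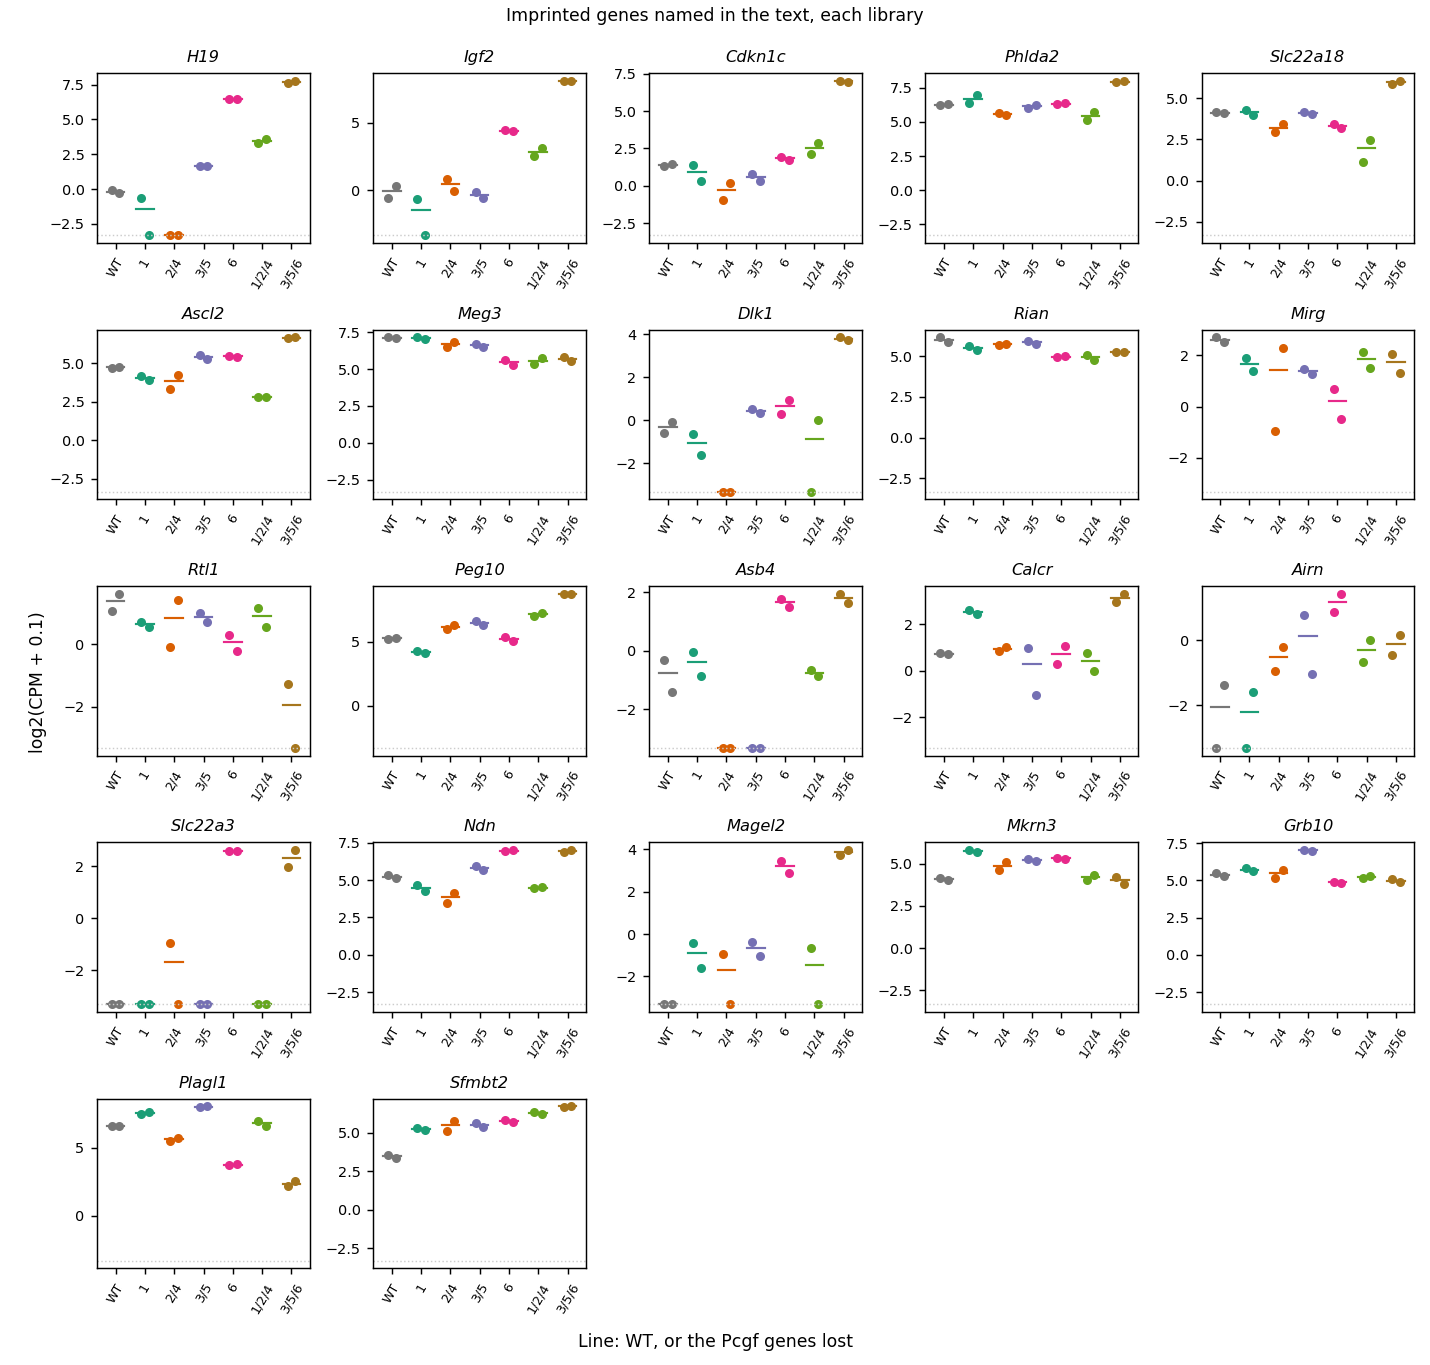
Level of 22 imprinted genes in each of the 14 libraries as log2 of CPM plus 0.1, by group, with each panel on its own range. Points are libraries and bars mark group means. H19, Igf2, Cdkn1c and Dlk1 stand highest in the 2 Pcgf3/5/6-/- libraries, and Plagl1 stands lowest there.

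**Figure D3:**
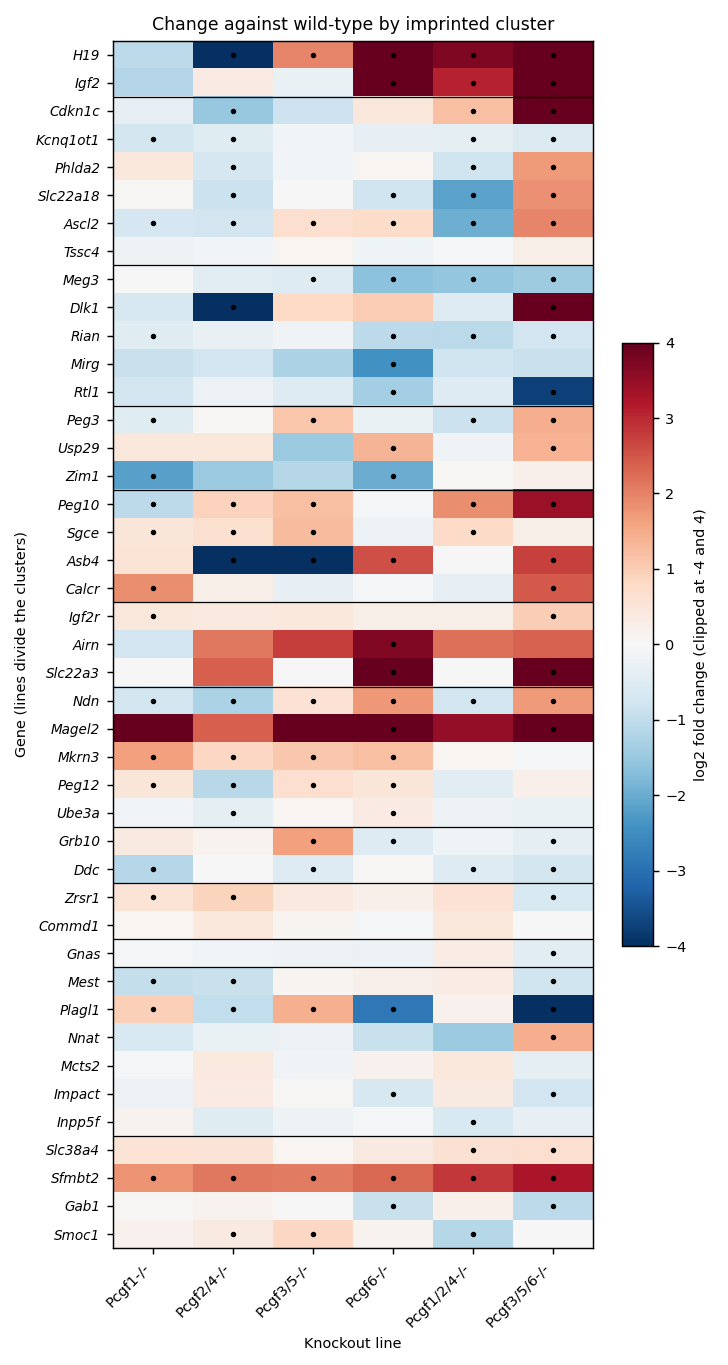
Fitted log2 fold change against wild-type of the 43 tested imprinted genes in the 6 knockouts, grouped by cluster, with colours limited to 4 in either direction and dots at an adjusted p below 0.05. Sfmbt2 is raised in all 6 columns. Cells of genes without counts in 1 of the groups depend on the fit's prior count.

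The Igf2-H19 pair was almost silent in wild-type and rose in Pcgf6-/-, Pcgf1/2/4-/- and Pcgf3/5/6-/-. H19, a maternally expressed noncoding RNA, was at 0.855 and 0.703 CPM in wild-type (6 and 5 counts), at 87.7 and 86.6 in Pcgf6-/- and at 201 and 218 in Pcgf3/5/6-/-. These groups did not overlap, with log2 differences of 6.77 (SE 0.23, adjusted p = 3.01e-10) and 8.03 (SE 0.22, adjusted p = 6.84e-11). Smaller rises were seen in Pcgf1/2/4-/- (9.6 and 11.7 CPM, log2 3.75) and in Pcgf3/5-/- (3.07 in both libraries, log2 1.95, adjusted p = 0.0036). No count of H19 was found in Pcgf2/4-/-, which against a floor of 3 counts over the group is at least 2.65-fold lower than wild-type (adjusted p = 0.0118). Without Pcgf2/4-/- replicate 2 that difference no longer passed (fitted log2 -5.06). In Pcgf1-/- the values were 0.546 and 0 CPM, near the wild-type counts.

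Igf2, the paternally expressed growth factor next to H19, was at 0.57 and 1.12 CPM in wild-type. It reached 21.6 and 21.1 CPM in Pcgf6-/- (log2 4.62, SE 0.29, adjusted p = 1.72e-08) and 273 in both Pcgf3/5/6-/- libraries (log2 8.29, SE 0.24, adjusted p = 6.72e-11). In Pcgf1/2/4-/- it was at 5.87 and 8.57 CPM (log2 3.07, adjusted p = 0.000151). The libraries of Pcgf1-/-, Pcgf2/4-/- and Pcgf3/5-/- lay between 0 and 1.67 CPM, which overlaps wild-type. Thus both genes of the pair, usually expressed from opposite parental copies, were high in the same lines. The 21 tested genes within 1 Mb of H19 that are not on the list had a median log2 change of 1.38 in Pcgf3/5/6-/-. Of these, 15 passed the threshold there, beside 53.3% of all genes. In Pcgf6-/- their median was 0.096 and 11 passed, beside 46.5% of all genes. All of chromosome 7 had medians of 0.12 and -0.032 in these 2 lines.

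In the Kcnq1 cluster the maternally expressed Cdkn1c, Phlda2, Slc22a18 and Ascl2 rose in Pcgf3/5/6-/-, 4 of 6 tested genes of the cluster, beside 28.0% of all genes. Kcnq1ot1 was lowered there, and the maternally expressed Tssc4 did not pass (log2 0.25, adjusted p = 0.0754). The 19 tested neighbours within 1 Mb of Cdkn1c, none of them on the list, had a median log2 fold change of 1.19 in that line. Of these, 12 passed the threshold, beside 53.3% of all genes. This window overlaps that of H19, so the 2 are not separate observations. In Pcgf2/4-/- 0 of the 6 were raised and 5 lowered, beside 13.5% of all genes lowered, but 4 of these 5 calls (Cdkn1c, Phlda2, Slc22a18 and Ascl2) were lost without wild-type replicate 2. Without wild-type replicate 1 the first 3 were lost. In Pcgf1/2/4-/- 1 was raised and 4 lowered, beside 14.4% and 22.6% of all genes. Cdkn1c, which encodes the cell cycle inhibitor p57, went from 2.42 and 2.67 CPM in wild-type to 129 and 123 (log2 5.62, SE 0.23, adjusted p = 6.44e-10). In Pcgf6-/- it was at 3.73 and 3.21 CPM (log2 0.45, adjusted p = 0.279), and in Pcgf3/5-/- at 1.6 and 1.15, and the triple was higher than these lines by 5.17 and 6.46 on the log2 scale. Pcgf2/4-/- had 0.419 and 1.02 CPM (log2 -1.52, adjusted p = 0.034) and Pcgf1/2/4-/- had 4.27 and 7.22 (log2 1.19, adjusted p = 0.0275). Both of these calls were lost without wild-type replicate 1 or replicate 2 (log2 -1.59 and -1.45 in Pcgf2/4-/-, 1.12 and 1.26 in Pcgf1/2/4-/-). The first was also lost without either Pcgf2/4-/- library (-1.28 and -2.54) or either Pcgf3/5/6-/- library (-1.52 and -1.51), and the second without Pcgf1/2/4-/- replicate 2 (0.746).

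Phlda2, a maternally expressed gene that limits placental growth, was at 75.1 and 78.4 CPM in wild-type and at 242 and 258 in Pcgf3/5/6-/- (log2 1.71, SE 0.18, adjusted p = 2.97e-06). Slc22a18, a membrane transporter, went from 17.5 and 17.3 CPM to 58.4 and 66.5 in the same line (log2 1.84, SE 0.19) and to 2.13 and 5.42 in Pcgf1/2/4-/- (log2 -2.15, SE 0.33, adjusted p = 0.000253). Ascl2, a transcription factor needed for the placenta, followed the same pair of directions: 25.5 and 27.3 CPM in wild-type, 100.3 and 102 in Pcgf3/5/6-/- (log2 1.94) and 6.94 and 6.77 in Pcgf1/2/4-/- (log2 -1.94). Thus the triple knockouts moved Slc22a18 and Ascl2 to opposite sides of wild-type, and Phlda2 was at 34.7 and 52.4 CPM in Pcgf1/2/4-/- (log2 -0.81), a call lost without replicate 1 of that line (-0.54). Ascl2 also passed in Pcgf6-/- (44.1 and 42.8 CPM, log2 0.72). Smaller values of Phlda2, Slc22a18 and Ascl2 in the other lines lay between -0.85 and 0.72 on the log2 scale. Kcnq1ot1, the paternally expressed noncoding RNA of the cluster, was at 257 and 232 CPM in wild-type and fell by 0.73 on the log2 scale in Pcgf1-/-, by 0.50 in Pcgf2/4-/-, by 0.36 in Pcgf1/2/4-/- (adjusted p = 0.0493) and by 0.57 in Pcgf3/5/6-/-. Kcnq1, a potassium channel gene, had no count in wild-type, 11 and 4 counts in Pcgf1-/- and 7 and 3 in Pcgf3/5/6-/-.

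In the Dlk1-Meg3 cluster the maternally expressed noncoding RNAs Meg3 and Rian were lower in Pcgf6-/- and in both triples, while Dlk1 rose in Pcgf3/5/6-/-. Meg3 was at 143 and 137 CPM in wild-type, 49.5 and 38.9 in Pcgf6-/- (log2 -1.66, SE 0.15, adjusted p = 8.25e-07), 40.6 and 53.7 in Pcgf1/2/4-/- (-1.56) and 56.8 and 46.6 in Pcgf3/5/6-/- (-1.43). All 6 libraries lay below both wild-type ones and below the 2 Pcgf1-/- libraries (143 and 132 CPM). In Pcgf3/5-/- it was at 105 and 92 CPM (log2 -0.50, adjusted p = 0.0254), a call lost without either wild-type library (-0.47 and -0.53) or either Pcgf3/5-/- library (-0.60 and -0.41). Rian, which hosts small nucleolar RNAs, was at 71.3 and 57.9 CPM in wild-type and at 30.4 and 32.3 in Pcgf6-/- (-1.04), 34.1 and 27.1 in Pcgf1/2/4-/- (-1.09) and 38.5 and 37.5 in Pcgf3/5/6-/- (-0.76). Mirg, which hosts microRNAs, fell in Pcgf6-/- from 6.42 and 5.62 CPM to 1.49 and 0.612 (log2 -2.44, adjusted p = 0.00108). It did not pass in Pcgf1/2/4-/- (4.27 and 2.71 CPM) or Pcgf3/5/6-/- (4.1 and 2.36).

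Dlk1, a paternally expressed transmembrane protein of the Notch ligand type, was at 0.57 and 0.843 CPM in wild-type and at 14.5 and 13.2 in Pcgf3/5/6-/- (log2 4.25, SE 0.38, adjusted p = 1.19e-06). In Pcgf6-/- it was at 1.12 and 1.84 CPM and in Pcgf3/5-/- at 1.34 and 1.15, neither past the threshold. No Dlk1 count was found in Pcgf2/4-/-, which is at least 2.41-fold lower (adjusted p = 0.029), a call lost without either wild-type library (fitted log2 -5.19 and -4.64) or without Pcgf2/4-/- replicate 2 (-4.93). Rtl1, a paternally expressed gene derived from a retrotransposon, had 1 count in the 2 Pcgf3/5/6-/- libraries against 35 in wild-type, a ratio of 0.0658 (95% interval 0.00162 to 0.392, counting error only). Its wild-type level was 2 and 2.95 CPM, and in Pcgf6-/- it was at 1.12 and 0.765 (log2 -1.35, adjusted p = 0.0225), a call lost without wild-type replicate 2 (-1.04) or either Pcgf6-/- library (-1.66 and -1.13). The paternally expressed Dlk1 and Rtl1 therefore moved apart in Pcgf3/5/6-/-.

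Peg3, a paternally expressed zinc finger gene, was at 51.6 and 48.8 CPM in wild-type and rose in the 2 lines labelled as lacking PCGF3 and PCGF5, to 110.1 and 108 in Pcgf3/5-/- (log2 1.12, adjusted p = 7.71e-05) and 144 and 129 in Pcgf3/5/6-/- (log2 1.45, adjusted p = 1.66e-06). In Pcgf6-/- it was at 43.7 and 39.3 CPM. It was lowered in Pcgf1-/- (37.9 and 32.7 CPM, log2 -0.49, adjusted p = 0.0197) and in Pcgf1/2/4-/- (29.3 and 25.7, -0.87, adjusted p = 0.0023). The 16 tested genes within 1 Mb that are not on the list had medians of -0.59 in Pcgf1/2/4-/- and -0.85 in Pcgf3/5/6-/-. Its neighbour Usp29, which encodes a deubiquitinase, was raised in Pcgf6-/- (log2 1.37) and Pcgf3/5/6-/- (1.40), and Zim1 was lowered in Pcgf1-/- (-2.18, adjusted p = 0.0269) and Pcgf6-/- (-1.97, adjusted p = 0.0228). Both are low genes with means under 2 CPM in every group, apart from Usp29 in Pcgf6-/- and Pcgf3/5/6-/-.

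Peg10, a retrotransposon-derived gene needed for the placenta, was raised in 4 lines and lowered in 1. It was at 37.4 and 39.4 CPM in wild-type, 432 and 416 in Pcgf3/5/6-/- (log2 3.47, SE 0.16, adjusted p = 1.09e-09), 129.7 and 151 in Pcgf1/2/4-/- (1.87), 97.2 and 80.1 in Pcgf3/5-/- (1.21), and 63.2 and 80.7 in Pcgf2/4-/- (0.93). In Pcgf6-/- it stayed at 40.3 and 33.3 CPM (log2 -0.05), and in Pcgf1-/- it fell to 19.7 and 17.4 (-1.04, adjusted p = 0.000316). Sgce, which starts beside Peg10 and encodes a sarcoglycan, was at 31.7 and 29.9 CPM in wild-type. Like Peg10 it was raised in Pcgf2/4-/- (45.6 and 49.8 CPM, log2 0.64), Pcgf3/5-/- (71.6 and 75.9, 1.26) and Pcgf1/2/4-/- (57.1 and 47.4, 0.76). In Pcgf1-/- it was raised (43.4 and 42.7 CPM, 0.48) where Peg10 was lowered, and in Pcgf3/5/6-/- it did not pass (0.24, adjusted p = 0.118). The adjacent genes thus were raised together in 3 lines, and in Pcgf1-/- passed in opposite directions. The 10 other tested genes within 1 Mb of Peg10 had a median log2 fold change of -0.27 in Pcgf3/5/6-/-.

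Calcr, the calcitonin receptor gene of this cluster, was at 1.57 and 1.55 CPM in wild-type, 5.9 and 5.26 in Pcgf1-/- (log2 1.85, adjusted p = 0.0023) and 7.57 and 9.79 in Pcgf3/5/6-/- (2.46, adjusted p = 0.000156). Asb4, which encodes an ankyrin-repeat protein with a SOCS box, was at 0.713 and 0.281 CPM in wild-type, 3.36 and 2.75 in Pcgf6-/- (log2 2.58, adjusted p = 0.000447) and 3.79 and 3.04 in Pcgf3/5/6-/- (2.73). With loess offsets as the scaling, these fitted Asb4 values were -0.208 and -0.184, so its direction depended on that choice. No other alternative turned it, and both calls held in each of 14 fits without 1 library. No Asb4 count was found in Pcgf2/4-/- or Pcgf3/5-/-, against 7 counts in wild-type. The first difference was lost in each of 14 fits without 1 library and the second in 8 of 14, with fitted log2 values of -4.95 to -3.68, which depend on the fit's prior count and are no bound.

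Igf2r, which clears IGF2 from the cell surface, was at 77.8 and 72.9 CPM in wild-type and rose to 151 and 148 in Pcgf3/5/6-/- (log2 0.99, adjusted p = 0.000175). Airn, the paternally expressed noncoding RNA that overlaps Igf2r on the other strand, had 2 counts in wild-type and 31 in Pcgf6-/- (1.74 and 2.6 CPM), a ratio of 15.0 (95% interval 3.82 to 129.5, counting error only, adjusted p = 0.00148). Pcgf3/5-/- had 14 Airn counts, a ratio of 7.78 (95% interval 1.79 to 70.6), which did not pass in the fit. Airn ratios were 4.84 in Pcgf2/4-/-, 5.18 in Pcgf1/2/4-/-, 5.76 in Pcgf3/5/6-/- and 0.522 in Pcgf1-/-, with intervals that include no change. All of these ratios rest on the same 2 wild-type counts. Since the use of strand in counting is not given in the sources used here, reads of Airn and of Igf2r introns cannot be told apart. Slc22a3, an organic cation transporter of the same cluster, had no count in wild-type. It was at 5.84 and 5.97 CPM in Pcgf6-/-, at least 27.8-fold higher (adjusted p = 2.74e-05), and at 3.79 and 6.07 in Pcgf3/5/6-/-, at least 23.2-fold higher (adjusted p = 0.000104). In the other 4 lines it had 1 count, in Pcgf2/4-/-.

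All 5 tested genes of the Snrpn cluster were raised in Pcgf6-/-, beside 27.8% of all genes. These were the paternally expressed Ndn, Magel2, Mkrn3 and Peg12 (log2 0.47 for Peg12) and the maternally expressed Ube3a, while Snrpn was not tested. Ndn, which encodes the growth suppressor necdin, was at 40.6 and 34.9 CPM in wild-type, 125 and 127 in Pcgf6-/- (log2 1.74, SE 0.15, adjusted p = 4.52e-07) and 116 and 129 in Pcgf3/5/6-/- (1.70). It fell to 10.9 and 17.7 CPM in Pcgf2/4-/- (-1.27, adjusted p = 0.000359). Smaller Ndn changes in Pcgf1-/- (-0.73), Pcgf3/5-/- (0.59) and Pcgf1/2/4-/- (-0.75) were each lost without at least 1 library: the first without wild-type replicate 1 (-0.62) or Pcgf1-/- replicate 2 (-0.46), the second without wild-type replicate 2 (0.49) or Pcgf3/5-/- replicate 1 (0.43), and the third without wild-type replicate 1 (-0.64) or either of its own libraries (-0.70 and -0.78).

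Magel2, a MAGE family gene beside Ndn, had no count in wild-type and was at 10.9 and 7.19 CPM in Pcgf6-/- and 13.2 and 15.5 in Pcgf3/5/6-/-. These levels were at least 42.7-fold (adjusted p = 2.05e-06) and at least 67.8-fold higher (adjusted p = 9.58e-07). In the other lines Magel2 did not exceed 0.668 CPM. Mkrn3, which encodes a RING finger protein linked to the timing of puberty, was at 18 and 16.6 CPM in wild-type and rose in Pcgf1-/- (56 and 51, log2 1.64), Pcgf3/5-/- (38.2 and 35.3, 1.09) and Pcgf6-/- (40.9 and 39, 1.21), but was at 18.6 and 13.8 CPM in Pcgf3/5/6-/- (-0.08, adjusted p = 0.734). Pcgf2/4-/- had it at 24.7 and 34.2 CPM (0.83), a call lost without replicate 2 (0.52). Mkrn3 was thus up in both lines lacking part of the triple and not in the triple, the reverse of Cdkn1c. Ube3a, the ubiquitin ligase gene of Angelman syndrome, passed with small values, 0.32 in Pcgf6-/- and -0.40 in Pcgf2/4-/-.

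Grb10, an adaptor that limits insulin and IGF signalling, was raised in Pcgf3/5-/-, at 131 and 127 CPM against 45.2 and 38.4 in wild-type (log2 1.63, SE 0.13, adjusted p = 1.79e-06). In Pcgf3/5/6-/- it was at 33.8 and 29.7 CPM, which is 2.02 lower on the log2 scale than Pcgf3/5-/-. In Pcgf6-/- it was at 29.9 and 28.9 CPM (-0.50), a call lost without wild-type replicate 1 (-0.38) or Pcgf6-/- replicate 2 (-0.48). Its neighbour Ddc, which makes dopamine and serotonin from their precursors, fell by 1.14 on the log2 scale in Pcgf1-/-, by 0.51 in Pcgf3/5-/- and Pcgf1/2/4-/- and by 0.73 in Pcgf3/5/6-/-.

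Plagl1, a paternally expressed zinc finger transcription factor, was raised in 2 lines and lowered in 3. Its levels were 97 and 100.2 CPM in wild-type, 256 and 267 in Pcgf3/5-/- (log2 1.41, SE 0.12, adjusted p = 3.26e-06) and 183 and 202 in Pcgf1-/- (0.96). It fell to 46.5 and 52.1 CPM in Pcgf2/4-/- (-0.99), 13.5 and 13.6 in Pcgf6-/- (-2.86, SE 0.14, adjusted p = 2.2e-09) and 4.42 and 5.74 in Pcgf3/5/6-/- (-4.28, SE 0.19, adjusted p = 9.68e-10). None of these groups overlapped wild-type, and the 2 lines without PCGF6 by label were the lowest. In Pcgf1/2/4-/- it was at 126 and 97.9 CPM (0.18, adjusted p = 0.289). The 11 other tested genes within 1 Mb had medians of -0.047 in Pcgf6-/- and 0.30 in Pcgf3/5/6-/-.

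Among other single loci, Mest, a paternally expressed gene related to hydrolases, fell by 0.96 on the log2 scale in Pcgf1-/-, by 0.88 in Pcgf2/4-/- and by 0.81 in Pcgf3/5/6-/-. Nnat, a neuronal membrane protein gene, rose in Pcgf3/5/6-/- (1.47), Impact fell by 0.65 in Pcgf6-/- and by 0.78 in Pcgf3/5/6-/-, and Gnas, the stimulatory G protein gene, fell by 0.42 in Pcgf3/5/6-/-. Of the genes known for imprinting in extraembryonic tissue, Sfmbt2, itself a Polycomb group gene, was at 11.8 and 10.3 CPM in wild-type and rose in all 6 knockouts. Its levels were 40.6 and 36.1 in Pcgf1-/- (log2 1.80), 34.3 and 55.8 in Pcgf2/4-/- (2.1), 51.2 and 41 in Pcgf3/5-/- (2.07), 56.4 and 51.5 in Pcgf6-/- (2.29), 83.2 and 75.8 in Pcgf1/2/4-/- (2.84), and 105 and 106 in Pcgf3/5/6-/- (3.26, SE 0.19, adjusted p = 1.39e-08). All 12 knockout libraries lay above both wild-type libraries. Gab1, a signalling adaptor, fell in Pcgf6-/- (log2 -0.89) and Pcgf3/5/6-/- (-1.06), from 239 and 247 CPM to 129 and 133 and to 116.4 and 116.8. Slc38a4, an amino acid transporter, rose in both triples (0.62 and 0.68), and Smoc1, a matrix protein gene, rose in Pcgf3/5-/- (0.83) and fell in Pcgf1/2/4-/- (-1.15).

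Triple knockouts were set against the lines that lack part of their genes. The 5 tested Y chromosome genes had median log2 changes against wild-type of -8.28 in Pcgf1-/-, -7.66 in Pcgf2/4-/-, -8.61 in Pcgf3/5-/- and -9.02 in Pcgf6-/-. In Pcgf1/2/4-/- the median was -4.13 and in Pcgf3/5/6-/- -1.13. Whether the sequenced lines were parents of the triples was not tested, so these contrasts and the interactions below also compare clones. Between Pcgf3/5/6-/- and Pcgf3/5-/- 33 of 43 genes passed (18 higher, 15 lower in the triple) beside 51.8% of all genes, and between Pcgf3/5/6-/- and Pcgf6-/- 23 passed (16 higher, 7 lower) beside 46.0%. Against Pcgf6-/-, the triple was higher in Cdkn1c by 5.17 on the log2 scale, in Igf2 by 3.67, in Peg10 by 3.52, in Dlk1 by 3.24 and in Slc22a18 by 2.64, but in H19 by 1.26 only, and lower in Plagl1 (-1.42). Between Pcgf1/2/4-/- and Pcgf1-/- 23 passed (11 higher, 12 lower) beside 41.6%, and between Pcgf1/2/4-/- and Pcgf2/4-/- 17 passed (9 higher, 8 lower) beside 30.0%. Both counts depend on single libraries: without Pcgf1-/- replicate 1 the first was 15, and without Pcgf1/2/4-/- replicate 2 they were 15 and 11. Igf2 was higher in Pcgf1/2/4-/- than in Pcgf1-/- (4.23) and than in Pcgf2/4-/- (2.73), and so was Peg10 against Pcgf1-/- (2.91).

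Whether losses added up on the log2 scale was tested as an interaction. For PCGF6 loss with PCGF3/5 loss 25 of 43 passed (13 above and 12 below the sum) beside 34.9% of all genes, and for PCGF1 loss with PCGF2/4 loss 18 passed (10 above, 8 below) beside 30.9%. Cdkn1c in Pcgf3/5/6-/- lay 6.01 above the sum of its values in Pcgf6-/- and Pcgf3/5-/- (SE 0.47, adjusted p = 8.54e-07), and Igf2 lay 3.93 above it (adjusted p = 0.000407). In Pcgf1/2/4-/- Igf2 lay 3.89 above the sum (adjusted p = 0.00241) and Cdkn1c 3.03 (adjusted p = 0.00213). The 2 genes thus exceeded additivity in both triples. In Pcgf1/2/4-/- the Cdkn1c value is built on calls in Pcgf2/4-/- and Pcgf1/2/4-/- that were lost without single libraries. The Igf2 value there rests on low levels in wild-type, Pcgf1-/- and Pcgf2/4-/-.

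RING1B peaks, as called by the authors in 1 sample each, lay within 2.5 kb of an annotated start at 19 of the 45 placed genes in wild-type (42.2%), beside 15.8% of 21001 placed genes. All 19 also had H3K4me3, all 18 genes with SUZ12 (40%, beside 17.2%) and all 13 with H3K27me3 (28.9%, beside 13.4%) were among them, and so were the 4 with PCGF6 (Ascl2, Gnas, Igf2r and Ndn; 8.89%, beside 5.83%). H3K4me3 lay at 38 genes (84.4%, beside 68.4%). H19, Plagl1, Meg3, Peg3 and Mkrn3 had no wild-type RING1B peak. A start region of 2.5 kb can hold 2 genes: Peg10 and Sgce share their peak.

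**Figure D4:**
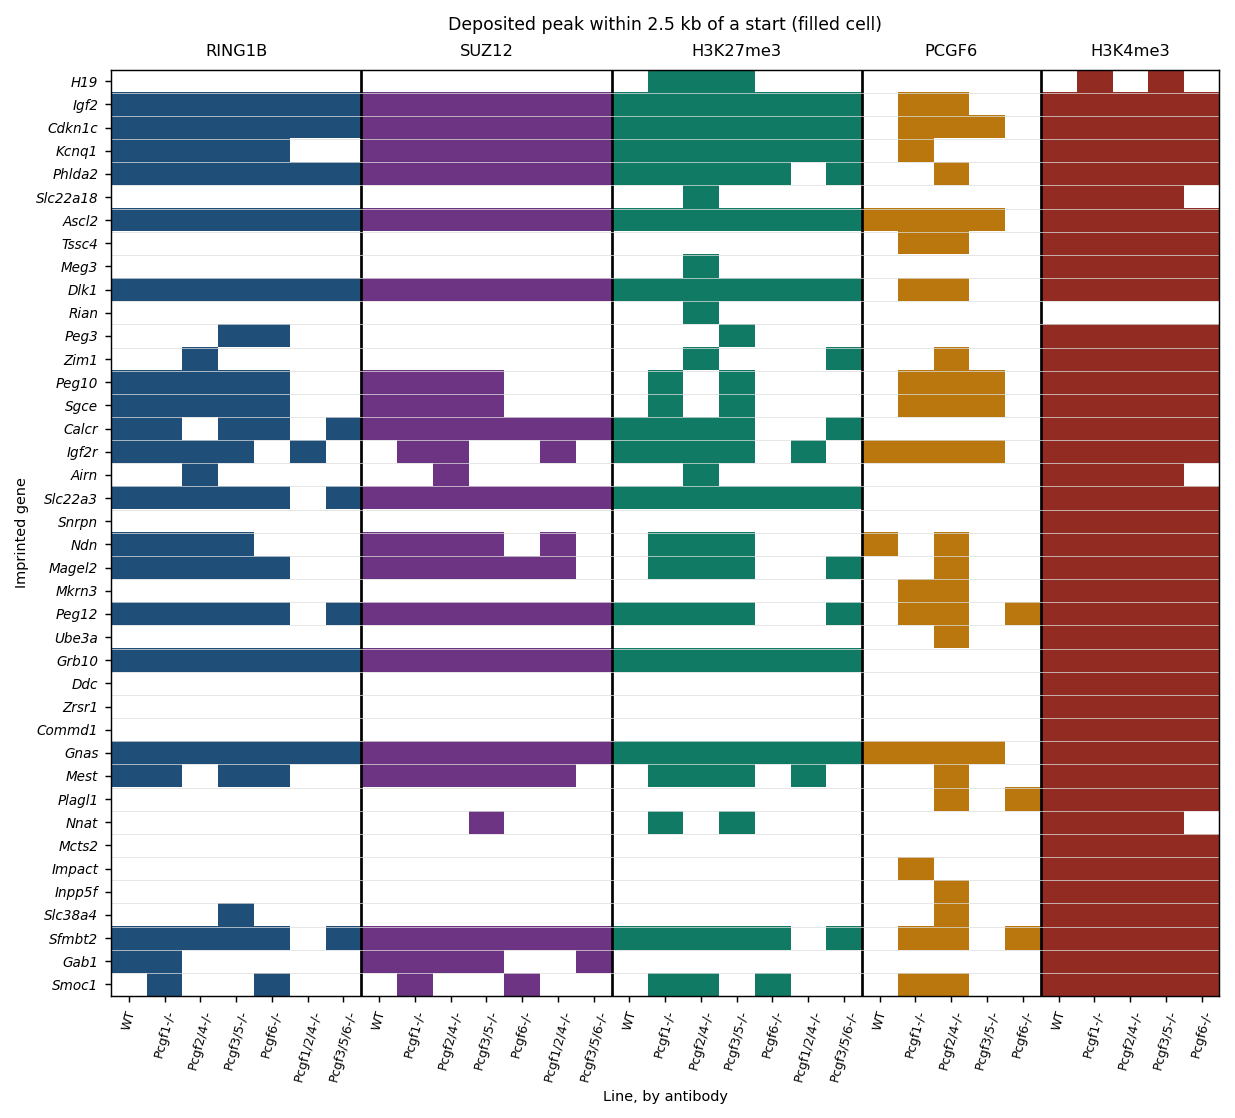
Presence of a deposited peak within 2.5 kb of a start, for RING1B, SUZ12, H3K27me3, PCGF6 and H3K4me3 in each line with a list, 1 ChIP sample each; rows are imprinted genes and filled cells have a peak. Igf2, Cdkn1c, Ascl2, Dlk1, Gnas and Grb10 have RING1B in every line.

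RING1B lists of the 4 single and double lines were near wild-type in length (5563 to 5696 peaks against 5454), and of the 19 genes 19 kept a peak in Pcgf1-/-, 16 in Pcgf2/4-/-, 18 in Pcgf3/5-/- and 16 in Pcgf6-/-. Over all genes with a wild-type peak the shares kept were 86.4%, 84.7%, 86.8% and 74.7%. In the triples the lists were shorter, with 3068 peaks in Pcgf3/5/6-/- and 2051 and 1814 in the 2 samples of Pcgf1/2/4-/-. There 11 of the 19 kept a peak in Pcgf3/5/6-/- (50.7% over all genes) and 8 and 7 in Pcgf1/2/4-/- (31.7% and 26.9%). With 1 sample a line, less binding and a less sensitive sample cannot be told apart. Igf2, Cdkn1c, Ascl2, Dlk1, Gnas and Grb10 kept RING1B in every list, and Phlda2 in all but the second Pcgf1/2/4-/- list. Kcnq1, Peg10 with Sgce, Ndn, Magel2, Mest and Gab1 had no RING1B peak in either triple. Igf2r had none in Pcgf6-/- and Pcgf3/5/6-/- but kept it in Pcgf1/2/4-/-, while Slc22a3, Peg12, Sfmbt2 and Calcr had it in Pcgf3/5/6-/- and not in Pcgf1/2/4-/-.

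Some genes whose RNA rose kept their RING1B peak and others did not. The authors' fold enrichment of a peak is given below with its percentile in its own list. Lists differ in length and in sensitivity, so these values describe each list and show no change between lines. At Igf2 the RING1B fold was 27.8 in wild-type (percentile 98.4 of its list), 26.1 in Pcgf6-/- (percentile 95.4) and 17.1 in Pcgf3/5/6-/- (percentile 93.8), and SUZ12 and H3K27me3 peaks were listed in every line. At Cdkn1c the RING1B fold was 25.9 in wild-type (percentile 97.2), 26.9 in Pcgf6-/- and 8.69 in Pcgf3/5/6-/- (percentile 60.4), with SUZ12 and H3K27me3 also in every line. At Ndn, whose RNA rose in Pcgf6-/- and Pcgf3/5/6-/-, neither RING1B nor SUZ12 was listed in either line. Magel2 kept RING1B in Pcgf6-/-, where its RNA rose, and at Sfmbt2 RING1B was listed in all lines except Pcgf1/2/4-/-. H19 had neither RING1B nor SUZ12 in any line, and H3K27me3 only in Pcgf1-/-, Pcgf2/4-/- and Pcgf3/5-/-. Peg10 had no RING1B peak in either triple, and its RNA rose in both. Magel2 and Igf2r had none in Pcgf3/5/6-/-, where their RNA rose, while Mest and Gab1 had none there and their RNA fell.

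With RING1B in wild-type, 12 of 18 tested imprinted genes were raised and 4 lowered in Pcgf3/5/6-/- (median log2 1.82), while over all genes with such a peak 56.4% were raised and 11.7% lowered (median 1.08). Without it, 7 of 24 were raised and 7 lowered (median -0.04; all genes without it 23% and 27.5%). In Pcgf3/5-/- 7 of the 18 were raised and 0 lowered (18.8% and 13.4% of all genes with a peak), and the 7 were Ascl2, Grb10, Ndn, Peg10, Peg12, Sfmbt2 and Sgce. In Pcgf2/4-/- 3 were raised and 7 lowered (8.73% and 24%). In Pcgf6-/- 7 were raised and 2 lowered (46.2% and 16.4%), in Pcgf1-/- 5 and 4 (20.6% and 21%), and in Pcgf1/2/4-/- 5 and 3 (15.3% and 16.8%). Of the 24 genes without a wild-type peak, 5 were raised and 3 lowered in Pcgf3/5-/-, 3 and 5 in Pcgf2/4-/-, 6 and 8 in Pcgf6-/-, 3 and 4 in Pcgf1-/-, and 2 and 7 in Pcgf1/2/4-/-. Over all genes without a peak the shares in these lines were 9.78% and 9.79%, 7.91% and 11.7%, 24% and 19.2%, 12.5% and 18%, and 14.6% and 23.7%.

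H3K27me3 peaks lay at 21 genes in Pcgf1-/-, 23 in Pcgf2/4-/-, 21 in Pcgf3/5-/- and 11 in Pcgf6-/-, beside 20.2%, 36.8%, 21.6% and 14.2% of all genes, in lists of 13041 to 112110 peaks. In Pcgf1/2/4-/- they lay at 10 genes (22.2%, beside 5.8%) and in Pcgf3/5/6-/- at 14 (31.1%, beside 20.3%). These counts moved with list length only in part: the Pcgf6-/- list was longer than that of wild-type (13041 against 8063 peaks) but lay at fewer genes (11 against 13). A peak gained in a longer list is not by itself more mark. PCGF6 peaks lay at 15 genes in Pcgf1-/-, 22 in Pcgf2/4-/- and 6 in Pcgf3/5-/- (18.2%, 33.5% and 5.4% of all genes). In Pcgf6-/-, which lacks the target of the antibody, 0 of the 4 genes with a wild-type PCGF6 peak kept it. Over all genes with such a peak 14.4% kept it. The Pcgf6-/- list had peaks at 3 genes without one in wild-type (Peg12, Plagl1 and Sfmbt2). At Peg12, Plagl1 and Sfmbt2 a PCGF6 peak listed in another line therefore cannot be told from background by its presence alone. Of the 4 genes with wild-type PCGF6, Ascl2 (0.72) and Ndn (1.74) were raised in Pcgf6-/-, and Igf2r (0.23) and Gnas (-0.23) did not pass.

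H3K4me3, a mark of active starts, was listed at Plagl1 in all 5 lines with a list of 40094 to 47619 peaks. The authors' fold there was 25.3 in wild-type (percentile 67.4 of its list), 90.2 in Pcgf1-/- (percentile 97.2) and 73.8 in Pcgf3/5-/- (percentile 97), the 2 lines where its RNA rose, and 7.28 in Pcgf6-/- (percentile 16.8), where it fell. In Pcgf2/4-/- the fold was 38 (percentile 79.6), where its RNA was lower. Again these values rank the peak within each list only. At Ndn the fold was 28.6 in wild-type (percentile 70.4) and 54.9 in Pcgf6-/- (percentile 86.5). Nnat, Slc22a18 and Airn had a wild-type H3K4me3 peak and none in Pcgf6-/-.

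H3K36me3, which marks transcribed gene bodies, was read as the percent of gene length inside deposited peaks in the 5 lines with a list. Plagl1 was covered to 0.627% in wild-type, 36.2% in Pcgf1-/-, 33.7% in Pcgf3/5-/-, 1.99% in Pcgf2/4-/- and 0% in Pcgf6-/-. The 2 lines with raised Plagl1 RNA thus had the highest cover, and Pcgf6-/-, with the lowest RNA of these 5, had none. Peg10 and Peg3 were covered in Pcgf3/5-/- alone of the 5 lines, to 30.6% and 22.3%, and both RNAs were raised there, but Peg10 RNA was also raised in Pcgf2/4-/- at 0% cover. Gab1 went from 20.7% in wild-type to 2.8% in Pcgf6-/-, where its RNA fell. Meg3 kept 72.8% in Pcgf6-/- against 73% in wild-type although its RNA was lower by 1.66 on the log2 scale. These genes were picked and do not stand for the rest, where cover and RNA often parted. Mcts2 went from 0% to 97.7% in Pcgf6-/- and Tssc4 from 0% to between 42.1% and 59.8% in the knockouts, and neither passed in any line. Mest cover was 14.5% in wild-type and 23.6% in Pcgf1-/-, where its RNA fell. However, Mcts2 overlaps H13 on the same strand, and Tssc4 and Mest overlap Trpm5 and Copg2 on the other. Cover at these genes therefore cannot be assigned to 1 gene and decides nothing about a mismatch with their RNA. H19, Igf2 and Ndn had 0% in wild-type and in Pcgf6-/-, where their RNA rose. Over all genes 13.3% were at least 50% covered in wild-type and 18.5% to 20.7% in the knockouts.

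**Figure D5:**
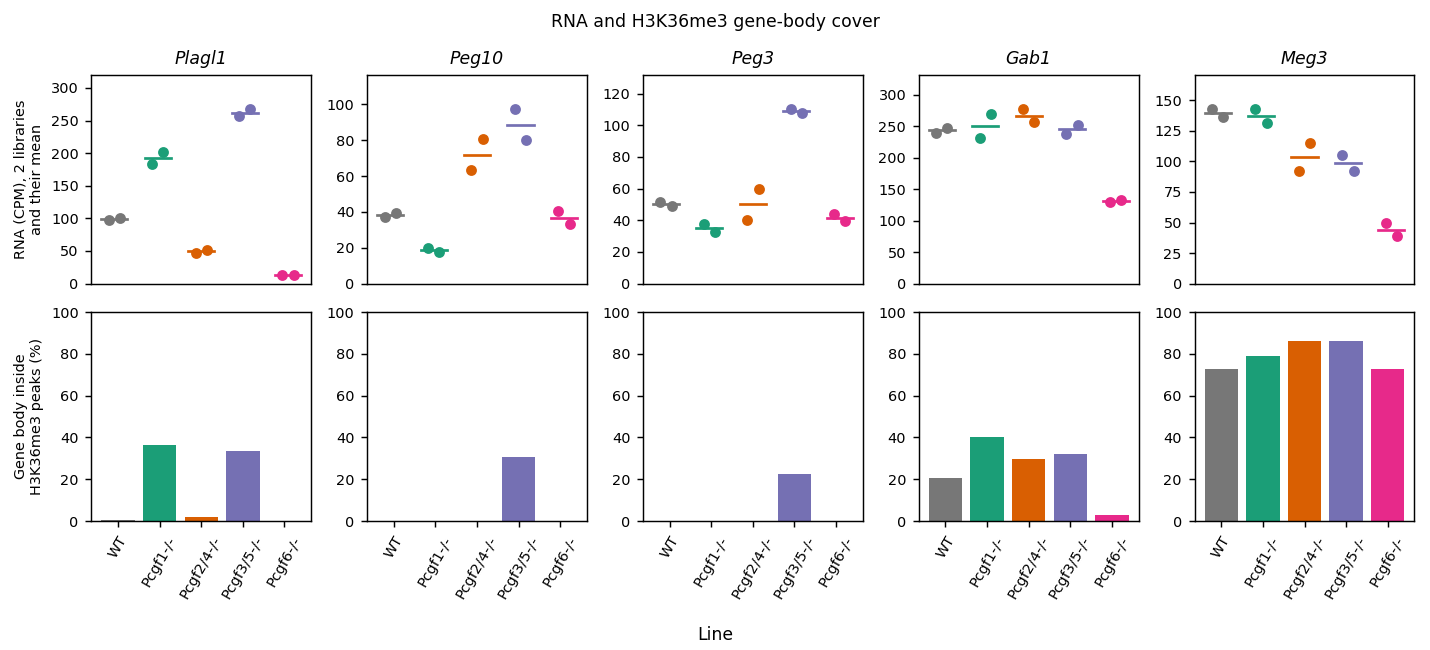
RNA level per library (CPM, upper row) and percent of gene length inside deposited H3K36me3 peaks (lower row, 1 ChIP sample a line) for Plagl1, Peg10, Peg3, Gab1 and Meg3 in the 5 lines with both. Plagl1 stands highest in Pcgf1-/- and Pcgf3/5-/- in both rows, while Meg3 RNA is lower in Pcgf6-/- with cover of 72.8%. The genes shown were picked and do not stand for the rest.

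Of 15 regulators of imprints, 10 passed in Pcgf3/5/6-/- (4 raised, 6 lowered), beside 53.3% of all genes. Dnmt3a, a de novo DNA methyltransferase, rose there by 2.25 on the log2 scale, in Pcgf3/5-/- by 1.28 and in Pcgf6-/- by 1.08. Dppa3, which guards maternal imprints in the zygote, rose by 2.57 in Pcgf3/5/6-/- and 1.90 in Pcgf6-/-. Tet1, which oxidises methylated cytosine, was lower by a log2 change of -0.90, and Ehmt2, a histone H3K9 methyltransferase, by -0.77. Zfp57 did not pass in that line (-0.19, adjusted p = 0.454), nor did the maintenance methyltransferase Dnmt1 (-0.21, adjusted p = 0.233). In the other lines 5 (3 raised, 2 lowered; Pcgf1-/-), 7 (2 and 5; Pcgf2/4-/-), 6 (1 and 5; Pcgf3/5-/-), 6 (2 and 4; Pcgf6-/-) and 8 (6 and 2; Pcgf1/2/4-/-) of the 15 passed, beside 32.3%, 21.6%, 21.6%, 46.5% and 37.0% of all genes. In Pcgf1-/- and Pcgf6-/- the list's share was thus no higher than that of all genes.

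Of 12 further genes of the IGF pathway 10 were tested. In Pcgf3/5/6-/- 7 were raised and 2 lowered, beside 28.0% and 25.3% of all genes, and in Pcgf6-/- 4 were raised and 2 lowered, beside 27.8% and 18.6%. Igfbp3, an IGF-binding protein, rose in Pcgf3/5/6-/- by 3.76 on the log2 scale, Irs1, an adaptor below the receptor, by 3.29 and Igfbp4 by 2.59. Igf2bp3 and Igf2bp2, RNA-binding proteins with Igf2 mRNA among their targets, were lower (-2.50 and -1.76). Counts in the other lines were 1 raised and 2 lowered in Pcgf1-/-, 0 and 2 in Pcgf2/4-/-, 0 and 2 in Pcgf3/5-/-, and 4 and 3 in Pcgf1/2/4-/-, beside 32.3%, 21.6%, 21.6% and 37.0% of all genes called in either direction.

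Markers of other cell types moved in the knockouts too. The 8 pluripotency markers summed to 2012 to 2018 CPM in wild-type, 2140 to 2143 in Pcgf3/5/6-/- and 1712 to 1837 in Pcgf6-/-. The 9 trophoblast markers, of a lineage in which Igf2, H19, Cdkn1c, Peg10, Phlda2 and Ascl2 are known to be active, summed to 170.9 to 179.1 CPM in wild-type, 457.5 to 459.9 in Pcgf3/5/6-/- and at most 132.7 in Pcgf6-/-. In Pcgf3/5/6-/- 5 of 8 tested rose (Krt7 by 8.20, Elf5 by 6.60 and Hand1 by 5.61 on the log2 scale among them) and 3 were lowered, including the defining genes Cdx2 (-1.94) and Eomes (-1.85). The 11 endoderm markers summed to 87.56 to 98.09 CPM in wild-type with 6 genes at 0, 88.95 to 106.3 in Pcgf3/5/6-/- with 0 genes at 0, and 128.2 to 134.2 in Pcgf6-/- with 2 at 0. The 6 neural markers summed to 89.4 to 89.53 CPM in wild-type and 207.9 to 214.6 in Pcgf3/5/6-/-, the 6 fibroblast markers to 10.82 to 14.97 and 35.09 to 37.22, and the 6 mesoderm markers to 40.48 to 46.91 and 12.82 to 24.92. In Pcgf2/4-/-, where 13 imprinted genes were lowered, the neural markers summed to 10.05 to 17.24 CPM, the fibroblast markers to 1.675 to 3.192 with 3 genes at 0, and the mesoderm markers to 13.4 to 21.2. The fibroblast sum was also low in Pcgf1/2/4-/- (1.067 to 1.805 CPM), where the pluripotency markers reached 3352 to 3567. The part of such cells in the changes of imprinted genes was not tested.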

How the data were processed

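RNA was measured in 14 poly-A libraries made by a modified SMART-seq2 method, and chromatin in 45 ChIP peak lists. The authors deposited RNA-seq as whole-number read counts per gene symbol, not normalized. Per the submitters' processing notes, TopHat2 2.1.1, HTSeq 0.7.2, Bowtie 1.2.2, Picard 1.62, MACS2 2.1.1 and the build mm9 were used; their roles, the annotation and strand use are details not given in the sources used here. Peaks were deposited as 1 list per sample, with each peak's ratio (fold enrichment) and −log10 p and q values in narrowPeak columns. No column of per-sample values was left unmapped (0).

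Counts of all 14 libraries entered 1 edgeR 4.0.16 quasi-likelihood fit in R 4.3.3 (TMM, filterByExpr, 7 residual degrees of freedom), with Benjamini-Hochberg adjustment over 15464 genes and a threshold of 0.05. The fit was tested on simulated data. With 2 libraries a group, exact permutation cannot reach the threshold. CPM use TMM-scaled totals. Folds against a group without counts use a floor of 3 counts over its libraries, 0.206 to 0.733 CPM. Intervals are exact for counts summed over libraries and, like floors, cover counting error only and not the spread between libraries. The reads carry no molecular identifiers, so a count is of reads and not of molecules. A peak counted when it lay within 2.5 kb of any start in GENCODE M1 (NCBIM37).

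The 22 genes given per library are the Igf2-H19 and Dlk1-Meg3 clusters and genes with an adjusted p below 0.05, an absolute log2 fold change of at least 1.5 in a knockout and a mean of at least 2 CPM in a group. Members and lists were chosen with earlier results of these data known. Alternatives were other scalings, DESeq2 1.42.0, no filter, thinning, fewer libraries and other peak windows. ChIP of other antibodies and lines was not used here.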

Additional observations from a re-analysis of the deposited data

Results flagged for a closer look

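10 results were singled out because the test of the difference itself passed: the effect of 1 loss differed with the other loss present (edgeR interaction, all on the log2 scale, at most 5 genes for each pair of losses). For PCGF6 loss, the effect in cells without PCGF3 and PCGF5, minus the effect in wild-type cells, was 6.006 for Cdkn1c (SE 0.4681, adjusted p = 8.54e-07) and 3.931 for Igf2 (SE 0.6525, adjusted p = 0.000407). It was 3.311 for Zim1 (SE 0.9684, adjusted p = 0.0165), 4.633 for Asb4 (SE 1.406, adjusted p = 0.023) and -4.124 for Airn (SE 1.191, adjusted p = 0.0153). The Asb4 value rests on no count in Pcgf3/5-/- and depends on the prior count, and Airn had 2 counts in wild-type.

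For PCGF1 loss, the effect in cells without PCGF2 and PCGF4, minus the effect in wild-type cells, was 3.889 for Igf2 (SE 0.8113, adjusted p = 0.00241) and 3.03 for Cdkn1c (SE 0.62, adjusted p = 0.00213). It was 3.724 for Zim1 (SE 1.156, adjusted p = 0.0247), -2.437 for Calcr (SE 0.826, adjusted p = 0.0372) and 9.894 for H19 (SE 1.183, adjusted p = 6.01e-05). The H19 value rests on no count in Pcgf2/4-/- and is a fitted value, not a bound. Zim1 stayed under 2 CPM in every group. The Cdkn1c value is built on calls in Pcgf2/4-/- and Pcgf1/2/4-/- that were lost without single libraries. Igf2 was low in wild-type, Pcgf1-/- and Pcgf2/4-/-. Igf2, Cdkn1c and Zim1 are on both lists, with the same sign. Pcgf6 RNA was not lowered in the libraries labelled Pcgf3/5/6-/-.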

How the results depend on the processing

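The 22 genes given per library passed in 77 combinations of gene and knockout, tried under 1682 alternatives, of which 1562 kept direction and side of the threshold, 118 kept direction only and 2 turned. The 2 were Asb4 with loess offsets, -0.2084 in Pcgf6-/- and -0.1838 in Pcgf3/5/6-/-; the cause was not tested. With an absolute log2 fold change of at least 1 required as well, the counts of imprinted genes were 6 in Pcgf1-/-, 7 in Pcgf2/4-/-, 9 in Pcgf3/5-/- and 10 in Pcgf1/2/4-/-, beside 15.0%, 11.3%, 11.4% and 16.3% of all genes. Under the same rule they were 13 and 9 for Pcgf1/2/4-/- against Pcgf1-/- and Pcgf2/4-/-, and 15 for Pcgf3/5/6-/- against Pcgf6-/- (19.5%, 14.5% and 22.7% of all genes). With only the 2 groups compared in the fit, counts were 7 of 35 tested in Pcgf2/4-/-, 28 of 34 in Pcgf1/2/4-/- and 11 of 31 for Pcgf1/2/4-/- against Pcgf2/4-/-, beside 8.66%, 65.2% and 21.2% of all genes. Thinning to 1 depth gave 12 of 38 in Pcgf2/4-/- and 14 of 38 in Pcgf6-/- (12.4% and 34.4% of all genes), and the wild-type pair taken as 1 sample gave 12 in Pcgf2/4-/- (14.2%). That last choice ended 10 named calls: Cdkn1c in Pcgf2/4-/- and Pcgf1/2/4-/-, Phlda2 and Dlk1 in Pcgf2/4-/-, Ascl2, Meg3 and Ndn in Pcgf3/5-/-, Asb4 in both of its lines without counts, and Grb10 in Pcgf3/5/6-/-. Leaving out 1 library gave 10 to 23 in Pcgf1-/-, 10 to 20 in Pcgf2/4-/-, 10 to 19 in Pcgf3/5-/-, 14 to 27 in Pcgf6-/-, 12 to 24 in Pcgf1/2/4-/- and 28 to 35 in Pcgf3/5/6-/-. For the triples against Pcgf1-/-, Pcgf2/4-/-, Pcgf3/5-/- and Pcgf6-/- the ranges were 15 to 24, 11 to 20, 28 to 35 and 20 to 25, and for the interactions 18 to 27 (PCGF6 with PCGF3/5) and 12 to 23. Same-numbered libraries of Pcgf1-/-, Pcgf3/5-/- and Pcgf6-/- deviated together (correlations 0.375, 0.22 and 0.199), those of Pcgf2/4-/- opposite to these lines (-0.462, -0.397 and -0.239), and other pairs of groups lay between -0.0627 and 0.0597. Replicate 1 was the deeper library in Pcgf1-/- (7848161 against 4501409 counts), Pcgf3/5-/- and Pcgf6-/-, and the shallower one in Pcgf2/4-/- (2764111 against 7547984). The part of depth in these correlations was not tested. Since not every pair deviated together, the replicate number was not taken to pair libraries. A fit with the replicate number as a block gave 15, 17, 15, 23, 18 and 29 imprinted genes in Pcgf1-/-, Pcgf2/4-/-, Pcgf3/5-/-, Pcgf6-/-, Pcgf1/2/4-/- and Pcgf3/5/6-/-. It kept 75 of the 77 named calls, the others being Asb4 in Pcgf2/4-/- and Grb10 in Pcgf3/5/6-/-. All 132 alternatives for peak counts stayed within 1.5 times the value given. Totals of 2147968 counts limit genes under 1 CPM to a few reads.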
